A study of Equus caballus with 25 samples.

Results

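Of the 25 horses whose bronchoalveolar lavage (BAL) cells were measured, the 10 with mild equine asthma (MEA) were divided by the share of neutrophils in the lavage cytology, and 4 horses with at least 8% neutrophils were compared with 6 horses below that limit. The 4 horses are called MEA higher here and comprised MEA replicates 1, 2, 6 and 8. The 6 horses are called MEA lower and comprised MEA replicates 3, 4, 5, 7, 9 and 10. The limit was chosen for this comparison and fell between close values. MEA replicate 8 lay just above it with 8.2%, and MEA replicates 7 and 9 lay just below it with 6.8% each. The cell counts were read on stained smears, independently of the arrays, so they could be set against the transcripts. Each percentage rests on a limited number of counted cells, so horses near the limit may fall on either side by counting error. That error was not part of any fit.

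The series also held 7 healthy control horses (CTRL) and 8 horses with severe equine asthma (SEA), and these were used here only as a background. All were privately owned horses, none carried a genetic modification or an experimental treatment, and all were sedated with xylazine and lavaged with saline and lidocaine during endoscopy. The MEA horses were sampled when they were presented with poor performance, mucus and neutrophilic cytology, and horses with mast cell or eosinophilic inflammation had not been included. Both MEA subgroups therefore carried neutrophilic inflammation, and they differed in the counted share of neutrophils. MEA higher held 3 males and 1 female, and MEA lower held 2 males and 4 females. The age and breed of single horses are not given in the sources used here. By the methods, the SEA horses were older than the CTRL and MEA horses. All CTRL horses were standardbreds, while most SEA and MEA horses were saddle horses, so breed and diagnosis were partly tied together.

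RNA of each lavage was hybridized to 1 one-color array of immune and mucosal genes with 2 spots for each of 7238 equine Ensembl transcripts, and values are given as log2 intensity after normalization across the 25 arrays. Every value belongs to 1 probe, and levels are compared between horses and not between probes. A difference is the mean of MEA higher minus the mean of MEA lower on the log2 scale. After a filter on dim probes, 4930 transcripts were tested. In the MEA arrays, 58.2% to 84.1% of the spots were well above background. The mean was 70.4% ± 9.31 (SD, n = 4) in MEA higher and 76.6% ± 5.3 (SD, n = 6) in MEA lower, and the two-sided exact permutation test gave p = 0.224. Of the array slides, slide 4 alone held horses of both subgroups, 1 from MEA higher and 4 from MEA lower. Values within slide 4 therefore set MEA replicate 8 alone against MEA replicates 3, 7, 9 and 10. The first of the 3 scan dates held 2 horses of each, MEA replicates 1 and 2 from MEA higher and MEA replicates 4 and 5 from MEA lower. Slide and subgroup were thus largely tied together, and values within these batches are given beside the leading transcripts and the lists whose median moved most.

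Neutrophils are the short-lived phagocytes of the blood, which enter the airway along gradients of chemokines such as CXCL8 and release proteases and reactive oxygen. In the healthy equine lung the lavage holds mostly alveolar macrophages, which clear particles and can secrete the same chemokines, together with lymphocytes and a few ciliated and mucus-producing epithelial cells shed from the airway wall. RNA of a mixed lavage reflects both how many cells of a type are present and how much RNA each cell holds, and these cannot be told apart in bulk samples.

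No transcript passed the call between MEA higher and MEA lower, which was an adjusted p below 0.1 in limma with a fold change of at least 1.5 (0%). At an unadjusted p below 0.05, limma held 184 transcripts, of which 116 were higher in MEA higher (2.35%) and 68 were lower (1.38%). Together these are a smaller share than the 0.05 that this level gives by chance. The exact Wilcoxon rank sum test gave 177 at the same level and called 0. The median difference over the 4930 transcripts was -0.01, and the median half-width of the 95% confidence interval of a difference was 0.80. For a typical transcript, a difference smaller than that could not be told from the spread between horses, even before adjustment. The subgroups did not overlap for 31 transcripts, of which 25 were higher in every MEA higher horse (0.507%) and 6 were lower (0.122%). The 10 horses can be split in 210 ways, so chance would separate about 1 in 210 transcripts in each direction. The share higher is close to that and the share lower is below it, so lack of overlap alone does not single out a transcript.

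The smallest p values belonged to PLXNA2, which encodes plexin A2, a semaphorin receptor, and to ENSECAT00000026287, a transcript without a symbol here. PLXNA2 was listed under 2 transcripts, and another unnamed transcript, ENSECAT00000005849, followed. The transcripts without a symbol were chosen after their values were seen. The probe sequences are shown because they decide how many measurements these lines stand for. They are the 60-base probes as the array files give them, 5′ to 3′, all in lower case because the whole probe is the measured target.
PLXNA2 (ENSECAT00000005858): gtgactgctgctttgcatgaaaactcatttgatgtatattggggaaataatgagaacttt
PLXNA2 (ENSECAT00000006154): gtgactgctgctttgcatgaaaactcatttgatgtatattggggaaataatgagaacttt
ENSECAT00000026287: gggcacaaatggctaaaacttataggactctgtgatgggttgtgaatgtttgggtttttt
ENSECAT00000005849: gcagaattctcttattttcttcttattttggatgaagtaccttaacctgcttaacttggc
KDELR3 (ENSECAT00000026433): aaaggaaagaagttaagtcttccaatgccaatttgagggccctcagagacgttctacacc

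Both PLXNA2 probes were the same over all 60 bases and therefore count as 1 measurement. The longest run of bases that any other pair of these probes shared was 6. Such sharing was common on this array, where 650 of the 4930 transcripts tested used 291 sequences between them. Counts of list members below are counts of transcripts, so a shared probe enters them more than once. For example, the 22 ciliated cell transcripts held 20 distinct probes and the 17 complement transcripts 14.

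PLXNA2 (ENSECAT00000005858) read 5.91, 6.20, 5.26 and 6.39 in MEA replicates 1, 2, 6 and 8, against a lowest value of 3.0, a median of 3.45 and a highest value of 4.35 in MEA lower. Every MEA higher horse lay above every MEA lower horse. The difference was 2.32 (SE 0.36, 95% confidence interval 1.55 to 3.1), and the adjusted p in limma was 0.113, so it was not called. The second PLXNA2 line gave 2.07 (SE 0.36, adjusted p = 0.159). The same direction appeared within the first scan date, with 2.61, and within slide 4, with 2.68, in values that carry no test. The mean of PLXNA2 was 5.33 ± 1.3 (SD, n = 7) in CTRL and 3.73 ± 0.79 (SD, n = 8) in SEA. In MEA lower, 4 of 6 horses were above background, so the lower levels lie near the limit of the probe. With the normexp background correction the difference of PLXNA2 (ENSECAT00000005858) was 0.62, with an adjusted p of 0.511 in limma.

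ENSECAT00000026287 read 5.53, 5.3, 6.81 and 6.8 in MEA replicates 1, 2, 6 and 8, and had a lowest value of 1.26, a median of 2.88 and a highest of 4.18 in MEA lower. The subgroups again did not overlap. The difference was 3.33 (SE 0.54, adjusted p = 0.113 in limma), the largest of the 4930 transcripts. It was 3.09 within the first scan date and 3.80 within slide 4. The probe was above background in 4 of 4 MEA higher horses and in 3 of 6 MEA lower horses. Both ENSECAT00000026287 and ENSECAT00000005849 needed MEA higher arrays to pass the filter on dim probes, beside CTRL and SEA arrays that also reached its limit. Their place among the transcripts tested therefore depends on the subgroup in which they are high. The highest values of ENSECAT00000026287 were 8.71 in CTRL and 6.63 in SEA. Those of ENSECAT00000005849 were 7.15 in CTRL, 4.53 in SEA and 5.41 in MEA higher. ENSECAT00000005849 was not well above background in any MEA lower horse and was so in 3 of 4 MEA higher horses. It was 4.96-fold higher in MEA higher, with the MEA lower horses set at the lowest signal detected on their arrays or at their own value where that was higher. The MEA higher horse that was not above background entered at its measured value, so this fold is not a strict lower bound. The measured means of ENSECAT00000005849 were 4.07 and 1.49, and its adjusted p in limma was 0.315. ENSECAT00000019105, also without a symbol, differed by 1.59 (SE 0.37, adjusted p = 0.771 in limma) with no overlap.

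**Figure D1:**
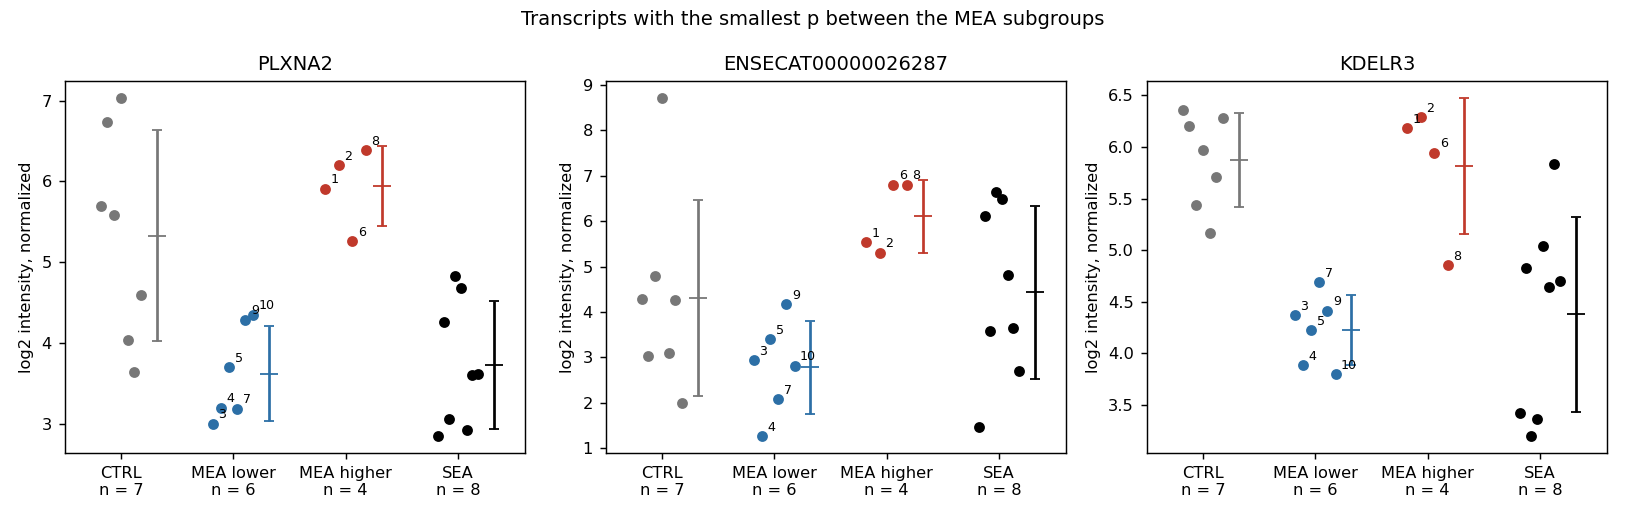
Normalized log2 intensity (vertical axis) of PLXNA2, ENSECAT00000026287 and KDELR3 in each horse of CTRL, MEA lower, MEA higher and SEA (horizontal axis). Points are horses, numbers are MEA replicates, and bars are the mean and SD of a group. The 4 MEA higher horses lie above the 6 MEA lower horses in each panel. CTRL horses reach from 3.64 to 7.03 for PLXNA2 and lie above all MEA lower horses, from 5.16 to 6.36, for KDELR3, while the SEA horses stay below MEA higher for PLXNA2, from 2.84 to 4.84.

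The cut at 8% discards the order within each subgroup, so the percentage of neutrophils was also fitted as a number in the same 10 horses. One transcript was called by limma in this fit, KDELR3, at an adjusted p of 0.0203 (0.0203% of the transcripts tested, rising). KDELR3 encodes a receptor that returns escaped proteins from the Golgi to the endoplasmic reticulum. It read 6.18, 6.29, 5.94 and 4.85 in MEA replicates 1, 2, 6 and 8, against a lowest value of 3.80, a median of 4.3 and a highest of 4.69 in MEA lower. The higher horses were all above the lower horses, and MEA replicate 8, which lay nearest the limit, was the lowest of the 4. The slope was 0.36 log2 units per percentage point of neutrophils (SE 0.05). Leaving out 1 horse at a time moved it between 0.35 and 0.39, and the call was lost without MEA replicate 2 (adjusted p = 0.121 in limma), 6 (0.120) or 10 (0.127). With the scan date as a block the slope of KDELR3 was 0.35 and its adjusted p in limma 0.529, and within slide 4 its difference was 0.54, against 1.59 over all horses. KDELR3 had a mean of 5.88 ± 0.46 (SD, n = 7) in CTRL and 4.38 ± 0.95 (SD, n = 8) in SEA.

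Further transcripts with a symbol and the smallest unadjusted p toward higher levels were CTSK, RARRES1, CCL18, PTPRZ1, CD84 and SLC7A11, with differences of 1.07 to 1.66 and an adjusted p of 0.945 in limma for each. CTSK, the lysosomal protease cathepsin K, differed by 1.45 (SE 0.48), and CCL18, a chemokine secreted by macrophages and dendritic cells, by 1.16 (SE 0.40). SLC7A11, the cystine transporter that feeds glutathione synthesis, differed by 1.66 (SE 0.61). RARRES1 was the only one of these 6 whose subgroups did not overlap. Toward lower levels, the same rule gave GPR153, SNX25, MEF2A, ERF, EGR1, ARG2, OLR1, 1 transcript of IGHG4 and 2 transcripts of IGLC1, with differences of -0.77 to -2.0 and the same adjusted p. EGR1, an immediate early transcription factor, differed by -0.98 (SE 0.36), and ARG2, the mitochondrial arginase, by -1.36 (SE 0.51). Of these, the subgroups of GPR153 and ERF did not overlap. None of the transcripts filling the places of the rule was called.

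No transcript of neutrophils passed the call in either direction, and most lay lower where the neutrophil count was higher. Of 15 transcripts from 14 genes, 0 were called, 1 lay above 0 and 14 below, with a median difference of -0.79 beside -0.01 for all transcripts. The 2 with an unadjusted p below 0.05 were FCAR and AQP9, a channel for water and glycerol, which gave -1.03 (SE 0.41). All 15 were well above background on at least 1 MEA array. Between SEA and CTRL, 13 of the 15 were higher in SEA, while ANXA3 and LTF were lower there, by -1.49 and -2.10. These 2 thus did not follow the neutrophil count between the diagnoses. The symbols were taken from lists of transcripts that the study had chosen on these same arrays, so the markers had been selected for differences between the diagnoses.

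CSF3R, the receptor for the growth factor G-CSF, read 9.01, 6.91, 6.74 and 7.63 in MEA replicates 1, 2, 6 and 8, and had a lowest value of 6.63, a median of 9.15 and a highest of 13.87 in MEA lower. Its difference was -1.85 (SE 1.12, 95% confidence interval -4.28 to 0.59, adjusted p = 0.945 in limma). FCAR, the receptor for immunoglobulin A, read 11.55, 10.19, 11.17 and 9.57 in MEA higher, and 10.85, 12.09 and 15.89 as the lowest, median and highest in MEA lower. The highest value of both belonged to MEA replicate 3, a horse below the limit, and the subgroups overlapped. FCAR differed by -1.88 (SE 0.81, adjusted p = 0.945 in limma) and by -1.20 without MEA replicate 3.

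TREM1, an amplifier of inflammation on neutrophils and monocytes, was listed under 2 transcripts with the same probe sequence, which gave -1.66 (SE 1.21) and -1.55 (SE 1.15). IL1R2, the decoy receptor for interleukin 1, read 7.89, 7.29, 9.37 and 8.53 in MEA replicates 1, 2, 6 and 8 and had a lowest value of 7.3, a median of 9.07 and a highest of 12.65 in MEA lower, with a difference of -1.24 (SE 0.91). MMP9, the gelatinase stored in neutrophil granules, gave -0.57 (SE 0.83), and ANXA3, an annexin abundant in neutrophils, was the only member above 0, with 0.40 (SE 0.41). Each of these overlapped between the subgroups and had an adjusted p of 0.945 in limma.

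MEA replicate 3 held the highest value of the 10 horses for 13 of the 15 neutrophil transcripts, and MEA replicate 8 the lowest for 7. The mean of the list was 9.20, 8.36, 8.92 and 8.33 in MEA replicates 1, 2, 6 and 8, against a lowest value of 8.48, a median of 9.17 and a highest of 12.03 in MEA lower. In CTRL it lay between 7.75 and 10.14 and in SEA between 7.99 and 11.71. Its average was 9.07 in CTRL and 8.70 in MEA higher, although the paper counted fewer neutrophils in CTRL. Without MEA replicate 3 the median difference of the list was -0.39, with 13 of 15 below 0. It was -1.03 within the first scan date, where 4 of 15 lay above 0, and -1.66 within slide 4. The slide 4 value sets MEA replicate 8, the lowest in the list mean, against horses that include MEA replicate 3, the highest. Per percentage point of neutrophils the median slope over the list was -0.17, and 2 of 15 slopes were above 0.

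**Figure D2:**
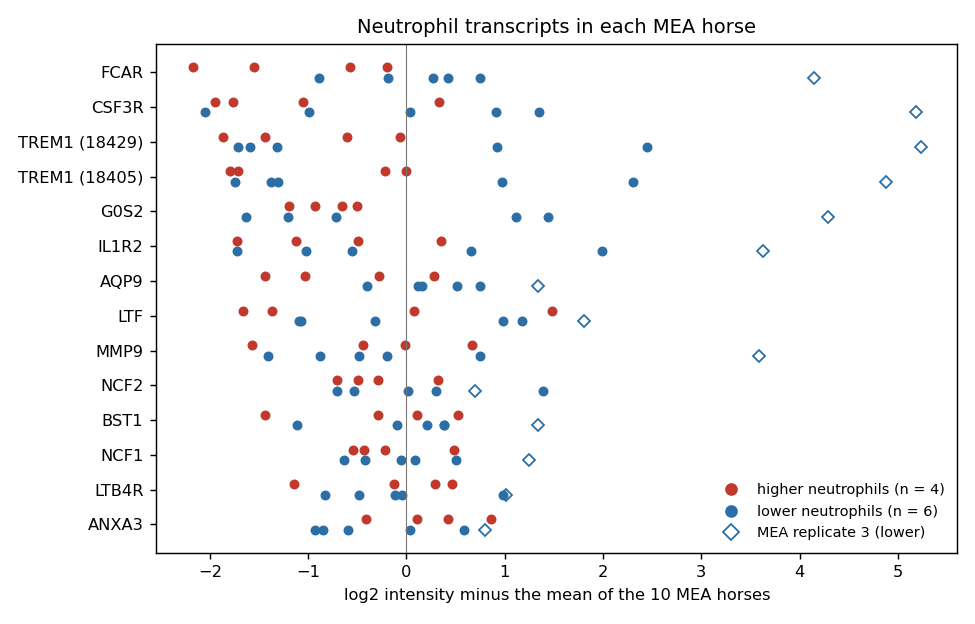
Log2 intensity of 14 of the 15 neutrophil transcripts minus the mean of each over the 10 MEA horses (horizontal axis), 1 line per transcript, ordered by the difference between the subgroups. Red points are the 4 horses with higher neutrophils, blue points the 6 with lower neutrophils, and the open diamond is MEA replicate 3, which is highest for 13 of the 15. The numbers after TREM1 are the last digits of its transcript identifiers.

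Macrophage transcripts were described in the same way, since macrophages make up the larger share of the lavage. CD68 and MARCO, a lysosomal glycoprotein and a scavenger receptor that mark alveolar macrophages, were well above background on all 10 MEA arrays. Of 15 macrophage transcripts 11 lay above 0 and 4 below, with a median difference of 0.37 and 0 called, and 3 had an unadjusted p below 0.05. CD68 differed by 0.56 (SE 0.34) and MARCO by 0.23 (SE 0.46). The extremes were VSIG4, a complement receptor of resident macrophages, with 1.84 (SE 1.0), MPEG1, a pore-forming protein, with 1.62 (SE 0.71), and SPP1, the secreted protein osteopontin, with -2.17 (SE 1.09). EMR1 gave -0.82. The macrophage list had a median of 0.34 without MEA replicate 3, 0.12 within the first scan date and 0.46 within slide 4.

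Among 23 transcripts of cytokines and chemokines, 0 were called, 13 lay above 0 and 10 below, and the median difference was 0.02. CXCL8, listed on the array as IL8_HORSE and the main neutrophil attractant, read 14.16, 14.95, 15.37 and 14.48 in MEA replicates 1, 2, 6 and 8, against a lowest value of 14.14, a median of 14.37 and a highest of 17.72 in MEA lower. Its difference was -0.39 (SE 0.65, 95% confidence interval -1.81 to 1.03), and 0.13 without MEA replicate 3. IL8_HORSE had a mean of 13.87 ± 1.31 (SD, n = 7) in CTRL and 16.16 ± 0.81 (SD, n = 8) in SEA, so the interval within MEA does not exclude a difference of about 1 log2 unit toward either side.

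Of the other inflammatory mediators, IL1A and TNFA_HORSE (tumor necrosis factor) gave 0.66 (SE 0.53) and 0.60 (SE 0.38), and the 2 probes of IL1B gave -0.32 (SE 0.71) and -0.42 (SE 0.6). PTGS2, the inducible cyclooxygenase, gave -0.01 (SE 0.39), and CCL20, a chemokine of epithelium and macrophages, gave -0.15 (SE 0.45). The extremes of the list were CCL7 (ENSECAT00000025677), a monocyte attractant, with 1.52 (SE 1.0), CXCL11, an interferon-induced chemokine, with 1.27 (SE 0.71), CCL17, an attractant of T helper type 2 cells, with -1.22 (SE 1.14), and IL15 with -1.21 (SE 0.63). CCL18, described above, alone had an unadjusted p below 0.05. MEA replicate 3 was the highest of the 10 horses for 15 of the 23 transcripts, and without it the median was 0.36 with 18 of 23 above 0.

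Innate receptors and their adaptors gave a median of -0.70 over 18 transcripts, of which 3 lay above 0 and 15 below, 0 were called and 1, OLR1, had an unadjusted p below 0.05. RIPK2, the kinase downstream of NOD receptors, was at the upper end with 0.77 (SE 0.43), followed by IRAK4 with 0.69 (SE 0.53), and TREM1 was at the lower end. Without MEA replicate 3 the median of the list was -0.18, with 8 above and 10 below 0, and with arrays weighted by their fit it was 0.13. The 16 transcripts of the NF kappa B pathway had a median of 0.09, with 10 above and 6 below 0 and 0 called. TRAF1 and NFKB1 gave 0.60 (SE 0.41) and 0.58 (SE 0.45), and NFKBID and MAP3K8 gave -0.39 (SE 0.44) and -0.28 (SE 0.50). MEA replicate 3 was highest for 13 of 16, and without it the median was 0.39 with 15 of 16 above 0. The median was 0.41 within the first scan date, with 12 of 16 above 0, and -0.25 within slide 4, with 5 above 0. Slide 4 held MEA replicate 3 and the first scan date did not. On slide 4 the list mean was 8.18 in MEA replicate 8, against 9.71, 7.96, 8.11 and 7.79 in MEA replicates 3, 7, 9 and 10.

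Epithelial transcripts differed in direction between lists, and 0 were called in any of them. All 22 transcripts of ciliated cells lay below 0, with a median of -0.63 and 0 at an unadjusted p below 0.05. FOXJ1, the master regulator of motile cilia, read 9.64, 7.26, 7.95 and 8.65 in MEA replicates 1, 2, 6 and 8, against a lowest value of 8.01, a median of 8.32 and a highest of 10.39 in MEA lower, and differed by -0.31 (SE 0.54). The largest differences belonged to ROPN1B, a ropporin known from the sperm flagellum, with -1.19 (SE 0.72), and RSPH9 (ENSECAT00000000629), a radial spoke protein, with -1.02 (SE 0.66). TEKT1, a tektin of the axoneme, gave -0.11 (SE 0.76), and RGS22 gave -0.10 (SE 0.41).

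Single horses at each end set the ciliary values. MEA replicate 7, of MEA lower, held the highest value for 22 of 22 ciliated cell transcripts, and MEA replicate 2, of MEA higher, the lowest for 20. The mean of the list was 8.03, 5.78, 7.82 and 7.95 in MEA replicates 1, 2, 6 and 8, and had a lowest value of 6.77, a median of 7.78 and a highest of 9.87 in MEA lower. Without MEA replicate 2 the median difference was -0.04, with 10 of 22 above 0, and without MEA replicate 7 it was -0.25, with 7 above 0. Within the first scan date it was -0.40, with 2 of 22 above 0, and within slide 4 it was -0.31, with 6 above 0. The first scan date included MEA replicate 2 and slide 4 included MEA replicate 7, so neither value is free of these extreme horses. The 17 transcripts of intraflagellar transport, the traffic that builds cilia, had a median of -0.27 with 3 above and 14 below 0, 0.04 without MEA replicate 2 and 0.15 without MEA replicate 7. IFT46 and IFT140 gave -0.70 (SE 0.69) and -0.67 (SE 0.81), and IFT81 and CLUAP1 gave 0.18 (SE 0.60) and 0.36 (SE 0.36).

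Secretory cell transcripts lay above 0 in 10 of 10, with a median of 0.29 and 0 at an unadjusted p below 0.05. MUC5AC, the main gel-forming mucin of the airway surface, read 3.08, 9.92, 3.08 and 2.28 in MEA replicates 1, 2, 6 and 8, against a lowest value of 1.25, a median of 4.3 and a highest of 5.77 in MEA lower. Only MEA replicate 2 lay above the other horses, and MUC5AC differed by 0.53 (SE 1.35). SPDEF, a transcription factor of goblet cells, gave 0.58 (SE 0.41), and SFTPD, surfactant protein D, gave 0.54 (SE 0.47). FAM3D and FOXA2 gave 0.06 (SE 0.34) and 0.03 (SE 0.57). The secretory median changed sign with sex as a covariate, where it was -0.12, and within slide 4, where it was -0.09 with 4 of 10 above 0. It was 1.07 within the first scan date, whose MEA lower horses, MEA replicates 4 and 5, had the lowest list means of the 10 MEA horses, 6.68 and 5.62. Without MEA replicate 5 the median was -0.00048, with 5 above and 5 below 0.

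The 30 transcripts of epithelial junctions and adhesion had a median of 0.01, with 16 above and 14 below 0. EPCAM, an adhesion molecule of epithelium, read 10.19, 9.61, 10.44 and 11.13 in MEA replicates 1, 2, 6 and 8, against a lowest value of 8.51, a median of 10.62 and a highest of 11.99 in MEA lower, with a difference of -0.05 (SE 0.58). CDH1, encoding E-cadherin, gave -0.34 (SE 0.49). DSP (ENSECAT00000002342), a desmosomal plakin, gave 0.72 (SE 0.63), and CLDN8 and PARD6B gave -0.58 (SE 0.51) and -0.52 (SE 0.33). None of these had an unadjusted p below 0.05. MEA replicate 7 was highest for 22 of 30 and MEA replicate 5 lowest for 23, and both belonged to MEA lower. Without MEA replicate 5 the median was -0.20, with 8 of 30 above 0, and without MEA replicate 7 it was 0.26, with 20 above 0. It was 0.51 within the first scan date, which included MEA replicate 5, and -0.09 within slide 4, which included MEA replicate 7.

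**Figure D3:**
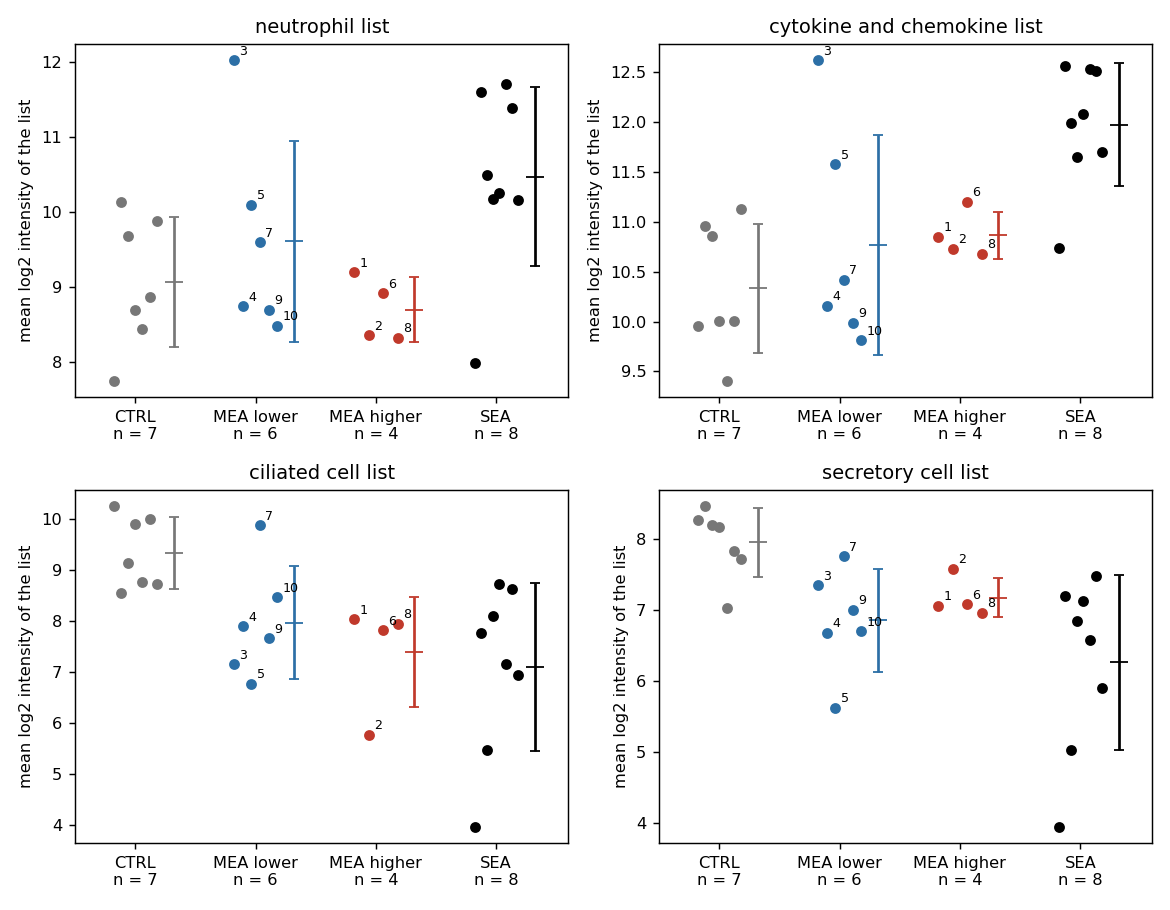
Mean log2 intensity of the neutrophil, cytokine and chemokine, ciliated cell and secretory cell lists (vertical axes) in each horse of CTRL, MEA lower, MEA higher and SEA (horizontal axis). Points are horses, numbers are MEA replicates, and bars are the mean and SD of a group. The 4 MEA higher horses lie inside the range of MEA lower for the cytokine and secretory lists, MEA replicates 2 and 8 lie just below the range for the neutrophil list, and MEA replicate 2 lies below it for the ciliated cell list.

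Transcripts of B and plasma cells, which serve as a marker of other cells in the lavage, lay below 0 in 12 of 12, with a median of -1.45 and 5 at an unadjusted p below 0.05, and 0 called. IGHG4 (ENSECAT00000007376), an immunoglobulin heavy chain, read 9.16, 8.01, 6.17 and 5.09 in MEA replicates 1, 2, 6 and 8, against a lowest value of 8.48, a median of 9.20 and a highest of 9.66 in MEA lower. MEA replicates 2, 6 and 8 lay below every MEA lower horse, and MEA replicate 1 did not. The difference was -2.0 (SE 0.67, 95% confidence interval -3.45 to -0.55, adjusted p = 0.945 in limma). IGLC1, a lambda light chain, had -1.89 (SE 0.66) and -1.67 (SE 0.60) at 2 of its probes. Immunoglobulin genes are a multigene family of near-identical copies, so these probes may read the same transcripts. IGLV3-32 (ENSECAT00000005002) and BLK, a B cell kinase, gave -0.36 (SE 0.34) and -0.27 (SE 0.56). The difference of IGHG4 (ENSECAT00000007376) was -0.65 within the first scan date and -3.95 within slide 4. Within the first scan date the median of the list was -0.32, with 3 of 12 above 0, and within slide 4 it was -2.20.

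Complement transcripts had a median of 0.23 over 17, with 12 above and 5 below 0, 3 at an unadjusted p below 0.05 and 0 called. C3AR1, the receptor for the C3a fragment, gave 1.52 (SE 0.62). C6, a component of the membrane attack complex, gave -0.72 (SE 0.96), and CD46 (ENSECAT00000012672), a membrane cofactor, gave -0.50 (SE 0.81). With sex as a covariate the median was -0.29. Without MEA replicate 4 it was 0.00036, with 9 above and 8 below 0, and without MEA replicate 2 it was 0.58.

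**Figure D4:**
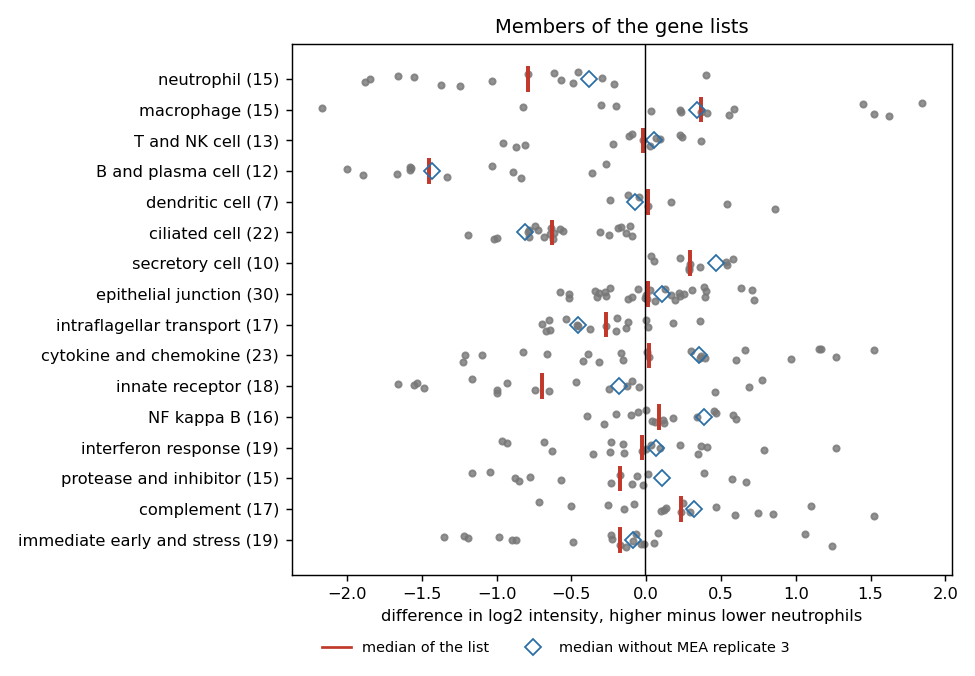
Difference in log2 intensity between MEA higher and MEA lower (horizontal axis) for every member of 16 gene lists, with the number of transcripts tested in parentheses. Grey points are transcripts, the red bar is the median of the list, the blue diamond is the median without MEA replicate 3, and the vertical line is the median of all 4930 transcripts. The neutrophil and innate receptor medians move toward 0 without MEA replicate 3, and the ciliated cell and B and plasma cell members lie below 0 throughout.

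Finally, MEA horses were placed on the line from the CTRL mean (position 0) to the SEA mean (position 1) over all 4930 transcripts, which asks how far the whole profile of a horse resembled severe disease. Limma called 791 transcripts higher (16%) and 821 lower (16.7%) in SEA than in CTRL. Positions were 0.51, 0.63, 0.34 and 0.24 in MEA replicates 1, 2, 6 and 8, and had a lowest value of -0.10, a median of 0.46 and a highest of 0.94 in MEA lower. The MEA higher horses all lay inside the range of MEA lower. The difference of the means was -0.06, with a two-sided exact permutation p = 0.819 over 210 splits, and 0.03 without MEA replicate 3. CTRL horses ranged from -0.48 to 0.41 and SEA horses from 0.55 to 1.38. The CTRL and SEA horses themselves set the line, so their separation on it is partly built in. MEA replicates 3 and 5, with lower neutrophils, were the nearest to the SEA mean.

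The 791 transcripts higher in SEA had a median difference of -0.13 between the MEA subgroups, with 37.2% of them above 0, beside a median of -0.01 and 49.2% for all transcripts. Without MEA replicate 3 the same median was 0.04, with 53.5% above 0. The 821 transcripts lower in SEA had a median of -0.04, with 45.2% above 0, and -0.10 with 40.3% above 0 without MEA replicate 3. Leaving out 1 horse at a time moved this median from -0.21, without MEA replicate 5, to 0.14, without MEA replicate 7. None of either set was called between the subgroups.

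In a principal component analysis of the 10 MEA arrays, the first component held 31.1% of the variance and the second 22.9%. The first component set MEA replicate 3 apart, with a score of 74.48, from the other 9 horses, which lay between -23.12 and 23.52. The second ran from MEA replicate 5, with -31.39, to MEA replicate 7, with 51.63, and all 3 of these horses belonged to MEA lower. The subgroup means differed by -19.37 on the first component (two-sided exact permutation p = 0.371, adjusted over both components 0.552) and by -11.03 on the second (exact permutation p = 0.552, adjusted 0.552). The spread within MEA lower was thus larger than the distance between the subgroups on both components.

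**Figure D5:**
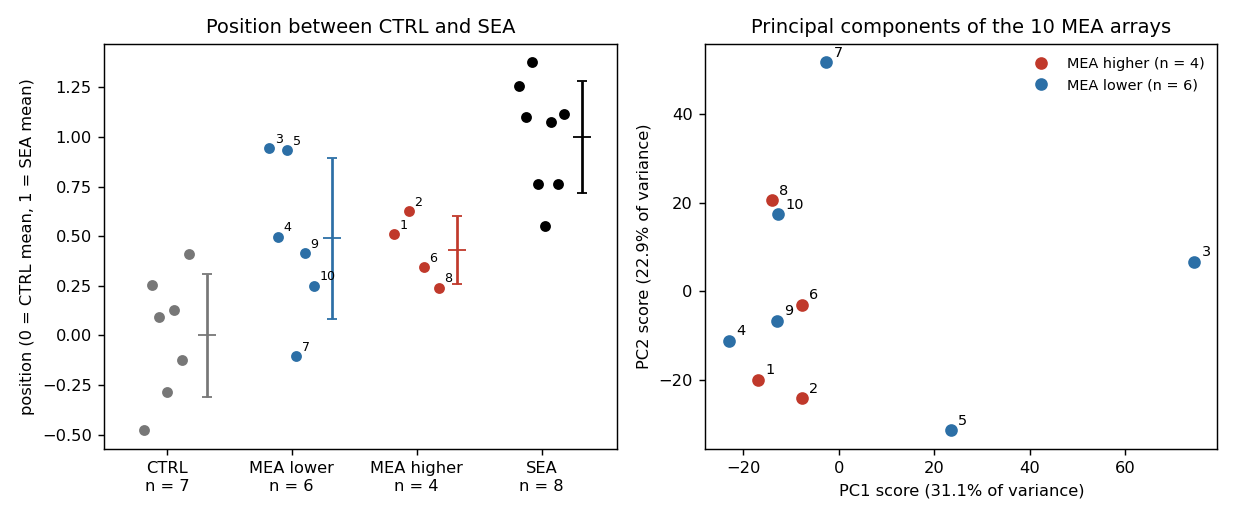
Left, position of each horse between the CTRL mean (0) and the SEA mean (1) on the vertical axis, by group, with the mean and SD of each group as bars. Right, scores of the 10 MEA horses on principal components 1 and 2, red for MEA higher and blue for MEA lower, with replicate numbers. The 4 MEA higher horses lie within the range of MEA lower in both panels, and MEA replicates 3, 5 and 7 lie at the ends.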

How the data were processed

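The authors deposited, for each of the 25 arrays, spot intensity values from Feature Extraction 9.5.1.1, corrected for background within the array, and a table of intensity values normalized across arrays, used here as an alternative. Log2 intensities were normalized by cyclic loess over the 25 arrays (limma 3.58.1, R 4.3.3), duplicate spots were merged to their mean, and the filter of the methods removed every transcript that stayed under 4.5 on 19 or more arrays. The methods give that limit without a scale, and it was applied on the log2 scale. Subgroups and slopes were fitted with limma's lmFit and eBayes with Benjamini-Hochberg adjustment over 4930 transcripts, and single values per horse were compared with exact permutation tests. The steps were tested on simulated data. Arrays have no sequencing depth, and the number of horses limits the precision. Each horse was 1 sample.

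Sex and cell percentages came from the cytology table of the study. Symbols came from its lists of changed transcripts, which name 1865 of 7238 transcripts, so the rest are given by their Ensembl transcript identifier. Genome positions were not used here. The members, gene lists and tests were chosen with earlier results of these data known. Named were the transcripts called, filled up to 10 in each direction by the smallest unadjusted p among those with a symbol, the 2 highest and 2 lowest differences of each list, and 19 marker and mediator genes, of which some are not reported here.

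Alternatives were a 75th percentile scaling, a quantile normalization, loess on the MEA arrays alone, normexp (offset 50), the authors' table, other filters, limma with trend and robust settings or array weights, all 25 arrays, the Wilcoxon test, sex or cell percentages as covariates, slide or scan date as a block, other thresholds, and each horse left out. Scan date as a block, slide as a term over 25 arrays and the values within slide 4 and the first scan date were added after seeing the data.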

Additional observations from a re-analysis of the deposited data

Results flagged for a closer look

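In 6 of 82 subgroup values examined, 1 horse stood far from the others of its subgroup, where chance alone marks about 1 in 20. MEA replicate 3 had the highest value of MEA lower for the mean of the NF kappa B list (9.71, next horse 8.11), the mean of the protease and inhibitor list (8.65, next 7.51) and FCAR (15.89, next 12.49). In MEA higher, MEA replicate 2 had the lowest mean of the ciliated cell list (5.78, next 7.82) and of the intraflagellar transport list (7.04, next 8.38), and the highest MUC5AC (9.92, next 3.08). MEA replicate 2 also had the smallest share of spots well above background of the MEA arrays, 58.2%, and its part in these values was not tested.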

How the results depend on the processing

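No paired analysis was possible because the higher and lower subgroups were different horses and no pairing between them is given. The count of transcripts called between the subgroups was 0 in every setting run except 4: it was 2 with sex, 6 with the percentage of epithelial cells and 2 with the percentage of lymphocytes as a covariate, and leaving out 1 horse gave 0 to 2, with 2 without MEA replicate 9. PLXNA2 (ENSECAT00000005858) was among those called in each of the 4. For the slope, 1 transcript was called, against 0 with the 75th percentile, quantile normalization, normexp, the slide as a block or the scan date as a block, 4 with sex and 4 with epithelial cells as a covariate, and 0 to 2 without 1 horse, 0 without MEA replicates 6 or 10. KDELR3 was not among those called with sex as a covariate or without MEA replicate 2, where the 1 call was ENSECAT00000024168. With the slide as a block, which rests on slide 4, the eosinophil transcript gave 2.08 against 0.21, and the protease and inhibitor list a median of -0.90 against -0.17. The scan date block was chosen after seeing the data. The causes were not tested. The neutrophil median lay below 0 in all settings, from -1.66 with the slide as a block to -0.10 with array weights. Array weights turned the innate receptor median from -0.70 to 0.13. The blocks and covariates leave few residual degrees of freedom in 10 horses.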

Other observations

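Other cell types and programs measured in the same horses showed 0 called transcripts. T and NK cell transcripts had a median difference of -0.02 over 13, with 6 above and 7 below 0. CD27, a costimulatory receptor of lymphocytes, gave -0.96 (SE 0.71) and CXCR6, a homing receptor, -0.87 (SE 0.55), and the 4 transcripts of GZMB, a cytotoxic granule protease, gave 0.36 (SE 0.45), 0.24 (SE 0.37), -0.02 (SE 0.49) and -0.81 (SE 0.61). Dendritic cell transcripts had a median of 0.01 over 7. CCR7, the receptor that guides dendritic cells to lymph nodes, gave 0.86 (SE 0.64) and LAMP3 0.54 (SE 0.90), and CD83 and CD1E gave -0.24 (SE 0.52) and -0.12 (SE 0.49). The single eosinophil transcript, PRG3, gave 0.21 (SE 0.64).

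Interferon response transcripts had a median of -0.03 over 19, with 9 above and 10 below 0. IFI44L, an interferon-induced gene, gave 0.79 (SE 0.59), and TRIM25, a ubiquitin ligase of RNA sensing, and PLSCR1 gave -0.96 (SE 0.44) and -0.93 (SE 0.93). MEA replicate 3 was the highest of the 10 horses for 11 of the 19. Proteases and their inhibitors had a median of -0.17 over 15. PLAUR, the urokinase receptor, gave -1.17 (SE 0.82) and MMP1_HORSE, a collagenase, -1.04 (SE 0.80), while MMP19 and TIMP1 gave 0.67 (SE 0.41) and 0.57 (SE 0.62). Immediate early and stress transcripts had a median of -0.17 over 19, with 4 above and 15 below 0, and MEA replicate 3 was highest for 13. GADD45A and DDIT3, 2 stress-induced regulators, gave -1.35 (SE 0.96) and -1.22 (SE 0.89), while HMOX1, heme oxygenase 1, and GADD45G gave 1.24 (SE 0.55) and 1.06 (SE 0.49).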
